A study of Mus musculus with 48 samples.

Results

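Noncoding RNA regions were studied in the blood and the medial prefrontal cortex (mPFC) of mice that were ovariectomized, stressed, both or neither. The array carries 16194 probes for stretches of the mouse genome that are named by chromosome, start, end and strand (build mm9) and by no gene, in 4610 region names. Of these, 3010 probes in 1895 regions were well above background on all 48 arrays, 24 of each tissue, and make up the regions described here. The members were chosen by these calls of the scanning software on the measured signals, so their number is a description and not a result. The members were 18.6% of the region probes and 41.1% of the region names, and 16.5% of the 18215 probes of any kind that were well above background on every array. Gene-named probes passed the same rule for 14309 of 36781 (38.9%).

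Blood and mPFC RNA came from 24 female C57BL/6J mice, 17 weeks old by the labels, with 6 mice in each of 4 groups and 1 array per mouse and tissue. Control mice had a sham operation and no stress, CUMS mice had a sham operation and chronic ultra-mild stress (CUMS), OVX mice had both ovaries removed and no stress, and OVX+CUMS mice had both. All groups were operated on and later anaesthetised with pentobarbital, and OVX removes all ovarian hormones, not only oestrogen. Blood was pelleted and mPFC was kept in a preservative, and different kits extracted their RNA. The RNA was amplified with a primer against the poly(A) tail and labelled with Cy3-CTP, a dye carried by cytosine, so transcripts without such a tail were measured poorly if at all. In bulk RNA of this kind, fewer cells of a type and less RNA per cell cannot be told apart.

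Long intergenic noncoding RNAs are transcripts without a long reading frame that lie between protein-coding genes, and many are made in few tissues or cell types. Some act in the nucleus on chromatin or as scaffolds of nuclear bodies, others act in the cytoplasm on RNA-binding proteins, and the function of most is not known. Regions such as these were placed on arrays because chromatin marks or sequenced transcripts pointed to transcription there, with the strand often unsettled, so that many are probed on both strands. A region is therefore an interval that may hold a noncoding transcript, part of a longer gene or nothing transcribed.

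The probes with the largest tissue differences in each direction are printed first, because they give the bases on the array for the regions that set blood and mPFC furthest apart. How specific they are to their positions was not tested. Each is given 5′ to 3′ as the scanner files give it, with the mm9 position of the probe. Capitals mark the motif CTGCC, searched on the probe's own strand and chosen after the values were seen. It was held by 459 of the 3010 member probes (15.2%), against 6.49% of all region probes and 9.22% of the gene-named probes that passed the same rule. Its reverse complement GGCAG was in 6.18% of the members and 7.14% of all region probes. The probes highest in blood relative to mPFC follow.
Probe at chr8:106056457-106056516, forward: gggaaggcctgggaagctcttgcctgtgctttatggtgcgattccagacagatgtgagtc
Probe at chr9:89168696-89168755, forward: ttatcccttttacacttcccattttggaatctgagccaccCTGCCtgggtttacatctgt
Probe at chr15:8479418-8479477, forward: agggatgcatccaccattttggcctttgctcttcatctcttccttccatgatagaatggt
Probe at chr4:155590985-155591044, reverse: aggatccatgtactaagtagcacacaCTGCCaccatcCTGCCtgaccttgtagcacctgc
Probe at chr17:22452022-22452081, forward: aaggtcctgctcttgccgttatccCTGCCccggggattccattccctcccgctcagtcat

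The probes highest in mPFC relative to blood were the following, and none of these holds CTGCC.
Probe at chr8:40250480-40250539, forward: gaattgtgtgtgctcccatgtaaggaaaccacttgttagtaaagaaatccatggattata
Probe at chr5:35976912-35976971, forward: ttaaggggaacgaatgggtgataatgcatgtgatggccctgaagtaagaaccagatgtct
Probe at chr8:40130744-40130803, forward: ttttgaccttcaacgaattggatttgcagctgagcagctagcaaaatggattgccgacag
Probe at chr2:156214123-156214182, reverse: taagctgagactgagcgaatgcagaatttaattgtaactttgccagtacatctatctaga

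A further set shows members that carried the group effects described further on: lower in blood after OVX (the first pair), higher in blood after OVX, higher and lower in blood with CUMS, and lower (a pair) and higher in mPFC of OVX mice.
Probe at chr3:88011083-88011142, reverse: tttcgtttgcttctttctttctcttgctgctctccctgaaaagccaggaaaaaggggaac
Probe at chr8:122925822-122925881, forward: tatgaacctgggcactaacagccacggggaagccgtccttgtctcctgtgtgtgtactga
Probe at chr7:80763999-80764058, forward: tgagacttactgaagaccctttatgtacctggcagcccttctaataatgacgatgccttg
Probe at chr2:143992201-143992260, forward: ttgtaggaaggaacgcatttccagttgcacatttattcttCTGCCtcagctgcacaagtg
Probe at chr8:74493892-74493951, forward: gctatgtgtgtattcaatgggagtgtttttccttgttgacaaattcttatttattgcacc
Probe at chr14:67588646-67588705, forward: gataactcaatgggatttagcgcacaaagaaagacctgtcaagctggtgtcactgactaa
Probe at chr9:81538806-81538865, reverse: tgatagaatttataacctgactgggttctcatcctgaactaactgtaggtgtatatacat
Probe at chr15:5973310-5973369, reverse: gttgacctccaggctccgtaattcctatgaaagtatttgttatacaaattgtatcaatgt

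Members lay on all chromosomes with region probes, from 13.7% of the region probes of chromosome 9 to 25.2% of those of chromosome 19. Their regions were 90 to 533972 bases long, with a median of 12847, against 10676 over all region names. The members were almost evenly split by strand, with 1524 forward, 1485 reverse and 1 without a strand in its name. A single member probe stood for 1234 regions, 661 regions had 2 or more and 53 had 5 or more. Members on both strands were found at 307 of the 1588 intervals.

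Just inside the rule, the dimmest member, chr15:102026122-102033597 (reverse), had a signal of 12.6 on its dimmest array. Just outside it, 407 region probes were well above background on 47 arrays, and 218 of these were missed on the blood array of CUMS mouse 2. That array had the lowest 75th percentile of signal (54.9). The 3 of these with the highest mean signal all failed there, namely a second probe of chr8:40238025-40264250 (forward), 1 of chr3:146629425-146649125 (forward) and 1 of chrX:91000651-91005855 (reverse), with median log2 signals of 2.50, 1.79 and 0.88. So some regions were left out because of 1 dim array.

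All values from here on are log2 signals relative to the 75th percentile of their own array, which lay between 54.9 and 192 in blood and between 572 and 689 in mPFC. The arrays lay on 3 slides of 8 for each tissue: slide 1 held the 6 control mice and CUMS mice 1 and 2, slide 2 held CUMS mice 3 to 6 and OVX mice 1 to 4, and slide 3 held OVX mice 5 and 6 and the 6 OVX+CUMS mice. Control and OVX+CUMS mice shared no slide, and no slide held both tissues, so tissue, slide and extraction kit cannot be told apart. Markers of the expected cells were present: 8 of 8 erythroid genes, 8 of 8 B cell genes and 8 of 8 T cell genes were well above background on every blood array, and 8 of 8 neuronal and 6 of 6 oligodendrocyte genes on every mPFC array. The lists were not particular to a tissue: all 6 oligodendrocyte genes, 5 of 6 microglial and 4 of 8 neuronal genes were well above background on every blood array, and 6 of 8 erythroid and 5 of 8 T cell genes on every mPFC array. OVX+CUMS mouse 5 stood apart in both tissues by its neutrophil marker level, the log2 of the summed signals of the listed genes. The brightest genes weigh most in such a sum. The level was 11.83 in blood, against at most 9.92 in the other groups, and 3.17 in mPFC, against at most 0.58.

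Blood and mPFC differed for nearly every region, and the regions leaned towards blood once each array was scaled to its own 75th percentile. Of the 2764 members that could be tested in both tissues, 2417 were higher in blood and 288 were higher in mPFC (limma, adjusted p under 0.05, the mouse as a block). Over all 17528 probes tested, 96.5% passed in either direction, 54.7% higher and 41.8% lower in blood, against 97.9%, 87.4% and 10.4% of the regions. The median difference was 2.32 log2 units for the regions, -0.02 for the gene-named probes and 0.43 for all probes. The size of this lean depends on the scale: before division by the 75th percentile, which itself was 2.46 log2 units lower in blood, the median difference was -0.20 for the regions and -2.47 for the gene-named probes. With the arrays shifted by their E1A spike-in probes instead, 1624 regions were higher in blood and 857 were higher in mPFC, where 93.8% of all probes passed. The median was then 0.52 for the regions and -1.36 for all probes. No shift of whole arrays can move the gap of 2.34 between the medians of regions and gene-named probes, but other processing can. With another background correction (normexp) the medians were 1.86 for the regions and 0.23 for all probes, to be set against the 2.32 and 0.43 above. The median of the gene-named probes with normexp is not given here. The median signal of the members was 142 in blood and 150 in mPFC, and that of gene-named probes 247 and 1626. The part of low signal in the gap was not tested.

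**Figure D1:**
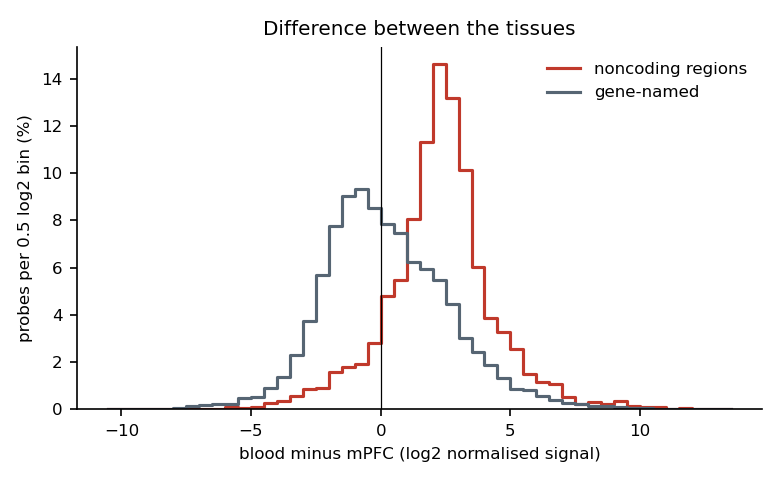
Histogram of the log2 difference between blood and mPFC (horizontal axis, each array scaled to its 75th percentile) for the 2764 tested region probes and the 13883 tested gene-named probes, each as a share of its own class. The regions centre at 2.32 and the gene-named probes at -0.02, and the regions range from -5.99 to 11.94.

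The widest difference was that of chr8:106037800-106070025 (forward), whose log2 signal was 6.65 to 9.68 over the 24 blood arrays (median 8.23) and -4.18 to -3.14 over the 24 mPFC arrays (median -3.82). The fitted difference was 11.94 ± 0.10 (SE; adjusted p = 4.88e-54), while the other member probe of the region differed by 2.68. The difference therefore holds for this probe and not for the interval as a whole. Whether the probe also bound RNA from elsewhere in the genome was not tested. At chr9:89167172-89168980 (forward) the blood arrays lay between 6.79 and 10.58 and the mPFC arrays between -2.61 and -1.84 (difference 10.85 ± 0.14). At chr17:22420025-22457650 (forward), blood lay between 9.18 and 11.52 and mPFC between -0.43 and 0.29 (10.39 ± 0.07), with 4.31 for its other probe. The tissues did not overlap at any of these. The remaining pair of the 5 highest, chr15:8463685-8494960 (forward) and chr4:155585650-155608700 (reverse), differed by 10.79 ± 0.14 and 10.44 ± 0.09. The gene-named probe nearest to the member probe of the latter was that of Perm1, a regulator of muscle metabolism, 4097 bases away on the opposite strand. This region also holds 2 gene-named probes on its own strand.

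In the other direction, chr8:40238025-40264250 (forward) had log2 signals of -1.35 to 0.31 in blood and 5.37 to 5.83 in mPFC, a difference of -5.99 ± 0.06. The neighbouring region chr8:40100925-40196350 (forward) holds a probe of Tusc3 on its own strand, a subunit of the oligosaccharyltransferase complex that glycosylates proteins, and differed by -4.94 ± 0.06, where the Tusc3 probe itself differed by -4.14. Its probes did not move as 1 unit, since another of them was higher in blood, by 2.34. At chr5:35975265-35982561 (forward) blood lay between -1.14 and 0.04 and mPFC between 4.80 and 5.25 (-5.52 ± 0.05), and the other probe gave -5.27. All 3 probes of chr2:156213798-156216885 (reverse) were lower in blood, with differences of -4.35, -4.20 and -4.25. That region holds a probe of Norad, a long noncoding RNA that binds Pumilio proteins, on its own strand and 231 bases from the member probe. That Norad probe differed by -4.24, and the other two probes of the gene by -1.18 and -1.95. Across these members the blood and mPFC arrays did not overlap.

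The regions differed from other probes in base composition as well, and the tissue difference moved with it. Member probes had a median of 16 cytosines in 60 bases, against 13 for all region probes and 13 for the gene-named probes. From members with 0 to 9 cytosines to those with 19 to 21, the median difference between blood and mPFC went from 1.16 to 2.74, and it was 2.54 with 22 or more. In gene-named probes it went from -0.59 with 0 to 9 to 2.51 with 22 or more, so that both classes met in the probes richest in cytosine. Only 82 gene-named probes had 22 or more cytosines. With 19 to 21 the medians still lay apart, at 2.74 for members and 1.53 for gene-named probes. The Spearman correlation of the cytosine count with the tissue difference was 0.29 over 2764 members and 0.25 over the gene-named probes. These points share the same arrays and overlapping probes, and the correlation is a description. Members with CTGCC had a median difference of 3.104 (431 probes) and those without it 2.19 (2333 probes), while members with GGCAG had 2.18 and those without it 2.33. The cytosine count was not held equal between these sets.

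Cytosine content moved with both group effects in blood. For OVX, the median effect was 0.13 in members with 0 to 9 cytosines and -0.54 in those with 22 or more, and in gene-named probes it was 0.23 and -0.57. For CUMS, the medians went the other way, from -0.14 to 0.28 in members and from -0.25 to 0.28 in gene-named probes. The part of base composition in the blood effects was not tested.

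**Figure D2:**
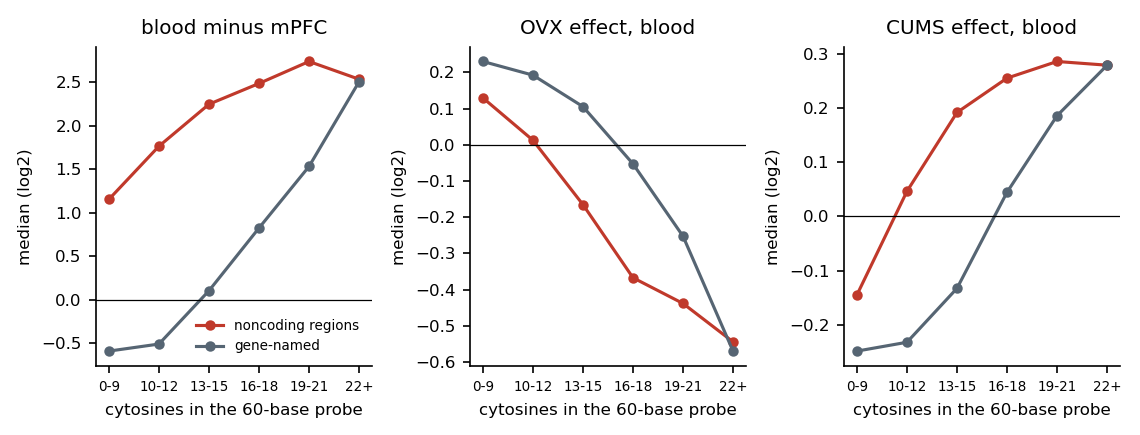
Median log2 difference (vertical axis) by the number of cytosines in the 60-base probe (horizontal axis) for the tissue difference, the OVX effect in blood and the CUMS effect in blood, with a line for region probes and a line for gene-named probes. Regions and gene-named probes lie apart at few cytosines in the tissue panel (1.16 and -0.59) and meet at 22 or more (2.54 and 2.51). Only 82 gene-named probes lie in that last class.

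Probes of 1 region often shared a sign. Among 598 regions with 2 or more probes tested in both tissues, all probes differed in the same direction between blood and mPFC in 534 (89.3%), and the SD within a region had a median of 0.72 against 2.08 over all members. For the effects in blood, this held for 410 of 620 regions with OVX (66.1%) and 464 of 620 with CUMS (74.8%). The region with the most member probes, 10, was chr17:26911397-26917047 (forward), where all lay close together: -0.35 to 0.02 between tissues, 0.12 to 0.42 for OVX in blood and -0.46 to -0.30 for CUMS in blood. The next pair, with 9 member probes each, did not. The 8 tested probes of chr14:77006215-77063293 (reverse) ranged from -3.94 to 5.24 between tissues, and the 9 of chr5:74487385-74497428 (forward), which holds the noncoding RNA Dancr, from -0.45 to 5.01. Where both strands of an interval were measured, the strand means had the same sign in 237 of 271 intervals (87.5%), but the correlation between strands was 0.14 (Spearman) and the median gap was 1.28. With 2417 of 2764 members higher in blood, most pairs have the same sign whatever links them.

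The members lay a median of 11626 bases from the nearest gene-named probe of the array, whether that probe was detected or not (2981 members with a position). For 463 it was within 1000 bases, and for 182 it was more than 100000 away. Where the probes overlapped on the same strand, region and gene had nearly the same tissue difference, with a Spearman correlation of 0.95 over 54 members. It was 0.52 over 113 members at 1 to 1000 bases on the same strand, 0.19 over 75 on the opposite strand, and 0.03 over 229 at more than 1000 and up to 10000 bases on the same strand. For the OVX effect in blood the same-strand values were 0.79 (55 members), 0.41 (117) and 0.01 (248). Overlapping probes share bases and arrays, so these are descriptions. Examples were the noncoding RNAs Pvt1, with 4.86 from the region probe and 4.79 from the overlapping gene probe, and Dleu2, with 1.54 and 1.61. Another probe of Pvt1 gave -1.11 and another of Dleu2 3.08, so the likeness held for the shared stretch and not for the gene. Malat1, a nuclear RNA of most cells, gave 1.50 from the region and 1.17 from the gene.

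In blood, most regions called for OVX were lower on the scale of the 75th percentile, whereas most were higher with the spike-in shift. Of 2844 members tested, 1383 were lower and 324 higher in the ovariectomized groups than in the sham-operated groups, 60% in all. Over all 20747 probes tested, 55.1% passed, 27.4% higher and 27.7% lower, against 11.4% and 48.6% of the regions. The median effect was -0.29 for the regions, 0.12 for gene-named probes and 0.04 for all. With the spike-in shift it became 0.06 for the regions and 0.39 for all. On that scale 1080 of the 2844 regions were called, 733 higher and 347 lower, against 54.3% of all probes. Relative to all probes the regions were lower on both scales. A shift of whole arrays moves every probe alike and cannot change this gap, so the second scale is no check of it. With slide as a block, 0 regions and 0% of all probes passed (233 regions at an unadjusted p under 0.05; limma), with a median of -0.10 for the regions.

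Most regions called for CUMS in blood were higher on the scale of the 75th percentile, whereas with the spike-in shift they were split almost evenly. CUMS and OVX+CUMS mice had higher signals than control and OVX mice for 919 members and lower signals for 269, or 41.8% in all. Over all probes 48.5% passed, 19.1% higher and 29.4% lower, against 32.3% and 9.46% of the regions. The median effect was 0.22 for the regions, -0.14 for gene-named probes and -0.03 for all probes. With the spike-in shift it was 0.04 for the regions and -0.21 for all. On that scale 229 of the 2844 regions were called, 124 lower and 105 higher, against 16.4% of all probes. When slide was a block, 1352 regions passed (1126 higher, 226 lower), against 49.6% of all probes, and 771 of the 1188 were among them. Within slide 2, 1490 members passed between CUMS and OVX mice (1213 higher in CUMS mice, 277 lower), against 52.2% of all probes, with a median of 0.49. These groups differ in surgery as well as stress, so this comparison is not one of CUMS alone. Within slide 1, CUMS minus control mice had a median of 0.34 over the regions, and within slide 3 OVX+CUMS minus OVX mice 0.33. No region passed in either of these smaller comparisons after adjustment (limma), where 786 and 1169 had an unadjusted p under 0.05. The CUMS effect with slide as a block is the mean of the comparisons within slides 1 and 3, so they are no separate evidence for it. It rests on only 2 CUMS mice on slide 1, among them CUMS mouse 2 with the dimmest blood array, and 2 OVX mice on slide 3.

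On single blood arrays, the median of the regions minus the median of the gene-named probes lay between -0.96 and -0.55 in the control group, between -0.88 and -0.10 with CUMS, between -1.20 and -0.95 after OVX and between -0.92 and -0.55 after both. OVX mice overlapped control mice only at the edge, and CUMS mice spread widest. The highest value belonged to CUMS mouse 2, the dimmest array. The level of the 8 erythroid markers in blood, again the log2 of their summed signals, was likewise lowest in OVX mice (13.55 to 14.26, median 13.99). It was highest in CUMS mice (14.43 to 15.35, median 14.69), with 13.91 to 14.33 after both (14.09) and 14.13 to 14.84 in the control group (14.36). The 75th percentile of signal ran the other way, with means of 144 in OVX, 126 in OVX+CUMS, 109.9 in control and 86.4 in CUMS mice. Other marker lists moved with the groups as well. The B cell level in blood, taken in the same way, was highest in OVX mice (8.45 to 8.70), above all control mice (7.84 to 8.34), and 7.29 to 8.06 in CUMS mice. The endothelial level was 5.31 to 5.89 in OVX and 6.17 to 6.85 in control mice. The part of erythroid, B cell and endothelial RNA and of signal strength in the effects on the regions was not tested.

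**Figure D3:**
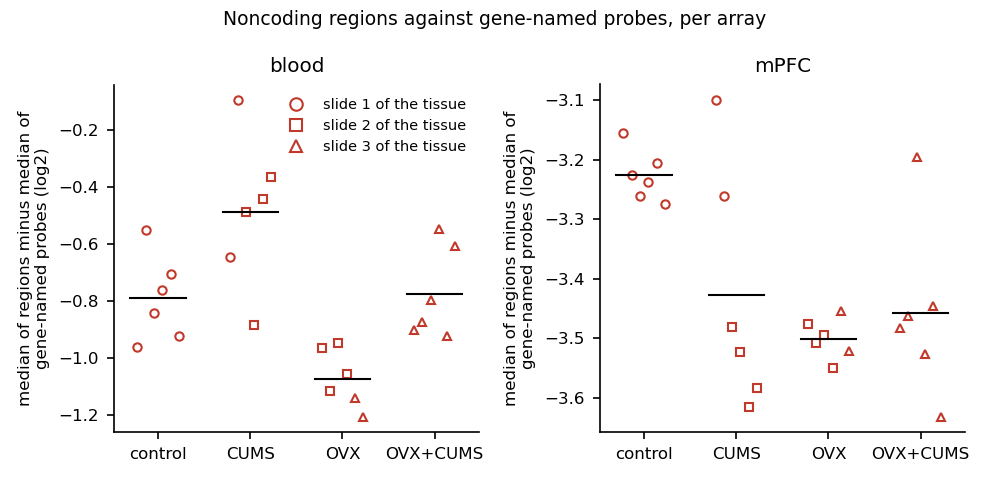
Median log2 signal of the member regions minus that of the gene-named probes on each of the 48 arrays (vertical axis), by group and tissue, with the marker shape giving the slide. In blood, OVX mice lie lowest (-1.20 to -0.95), and in mPFC the 2 CUMS mice on slide 1 lie with the control mice (means -3.18 and -3.23) while the 4 on slide 2 lie with the OVX mice (-3.55 and -3.51).

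The regions lay apart from gene-named probes of the same brightness as well. From the dimmest to the brightest of 4 equal classes of brightness, the median OVX effect in blood was -0.14, -0.23, -0.37 and -0.58 for the regions and 0.11, 0.19, 0.18 and 0.00 for gene-named probes. The regions were lowest where they were brightest. The CUMS medians were 0.18, 0.23, 0.24 and 0.27 for the regions and -0.10, -0.20, -0.19 and -0.08 for gene-named probes. In mPFC, where 58% of the members lay in the dimmest class, the OVX medians were -0.08, -0.09, -0.05 and -0.03 for the regions and -0.01, 0.05, 0.06 and 0.07 for gene-named probes.

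**Figure D4:**
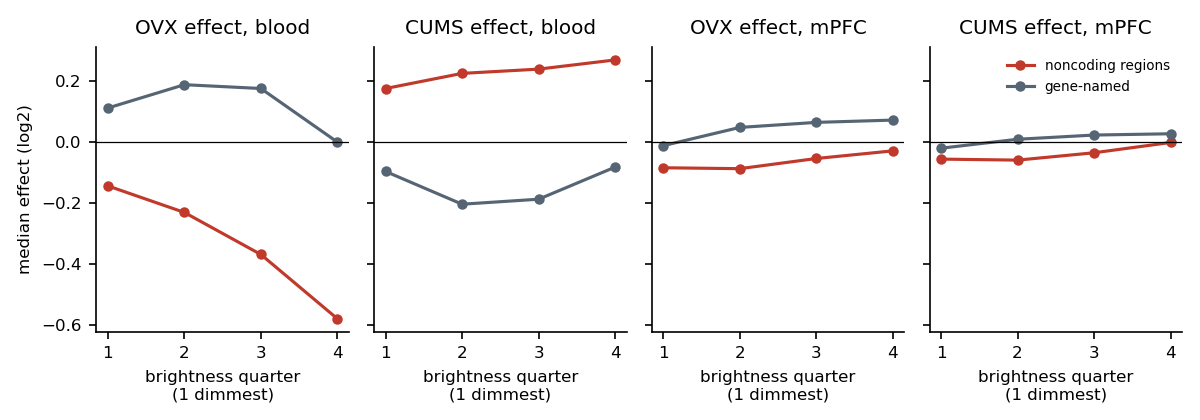
Median OVX and CUMS effect (log2, vertical axis) by class of brightness (horizontal axis, 4 equal classes, dimmest to brightest) for region probes and gene-named probes in blood and mPFC. In blood the OVX medians of the regions run from -0.14 to -0.58, below those of gene-named probes in every class.

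Among the regions lower in blood after OVX, chr3:88009045-88036270 (reverse) had log2 signals of 2.98 to 5.88 in the control group (median 3.92), 2.83 to 5.35 with CUMS (3.35), 0.63 to 2.50 after OVX (1.29) and 2.14 to 4.57 after both (2.77). The OVX mice did not overlap the control mice, and the fitted effect was -1.59 ± 0.32 (adjusted p = 0.000616). At chr8:122920901-123008463 (forward) the signals were 0.23 to 0.96 in control, -0.46 to 1.60 in CUMS, -1.68 to -0.16 in OVX and -1.33 to -0.09 in OVX+CUMS mice (-1.38 ± 0.19, adjusted p = 7.94e-05). Both groups of ovariectomized mice lay below all control mice. At chr3:107608348-107636457 (reverse) the effect was -1.49 ± 0.27.

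Higher after OVX was chr7:80763588-80764230 (forward), with 0.82 to 1.28 in control, 1.29 to 4.11 in CUMS, 2.08 to 3.37 in OVX and 3.48 to 4.09 in OVX+CUMS mice. Control mice lay below every other group, the effect was 1.46 ± 0.22 (adjusted p = 9.59e-05), and it turned to -0.12 with slide as a block. Effects of 1.69 ± 0.39 and 1.49 ± 0.33 were found for chr1:183951156-183986156 (forward) and chr1:42689799-42749799 (forward), and the latter turned to -0.41 with slide as a block. Its probe overlaps, on the opposite strand, one of Pantr1, a noncoding RNA first known from neural tissue.

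CUMS raised chr2:143992000-143992611 (forward) most in blood. Its log2 signals were -1.13 to 0.41 in control, -0.26 to 1.92 in CUMS, -1.21 to 1.35 in OVX and 1.06 to 1.75 in OVX+CUMS mice, for an effect of 1.47 ± 0.29 (adjusted p = 0.0013). With slide as a block it was 0.65 (adjusted p = 0.121), so the call was lost. The 2 OVX mice on slide 3 had a mean of 0.93, and the 4 on slide 2 of -0.42. Effects of 1.45 ± 0.33 at chr1:42689799-42749799 (forward) and 1.40 ± 0.33 at chr1:134867906-134885481 (forward) came next. The probe of the latter lies 1140 bases from one of Mdm4, an inhibitor of p53, on the opposite strand.

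The 3 regions that fell most with CUMS in blood kept their calls with slide as a block. At chr18:75518299-75524782 (reverse) the signals were -0.96 to -0.52 in control, -2.32 to -1.15 in CUMS, -0.90 to -0.53 in OVX and -1.88 to -1.05 in OVX+CUMS mice. Every stressed mouse lay below every unstressed one, and the effect was -0.68 ± 0.12 (adjusted p = 0.000776), and -0.57 with the block (adjusted p = 0.0127). At chr8:74474913-74494232 (forward) the signals were -0.74 to -0.04, -1.73 to -0.65, -0.36 to 0.06 and -1.02 to -0.17 in control, CUMS, OVX and OVX+CUMS mice, for an effect of -0.58 ± 0.11 and -0.66 with the block (adjusted p = 0.00952). The remaining one, chr3:113296823-113298691 (reverse), fell by 0.62 (SE 0.16), and by 0.57 with the block (adjusted p = 0.0457).

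The interaction, the effect of CUMS in OVX mice minus that in sham mice, was called for few regions in blood. It was above 0 in 45 and below 0 in 5, or 1.76%, against 1.42% of all probes, 1.29% above and 0.13% below, and 694 regions had an unadjusted p under 0.05. The count was 0 with slide as a block and in 19 of the 24 fits that left out 1 mouse, among them those without CUMS mouse 3 or OVX+CUMS mouse 5, and it was 515 without CUMS mouse 2. At chr12:83271350-83357214 (forward), which had the largest value (3.24 ± 0.74, adjusted p = 0.0435), the signals were 7.82 to 8.49 in control, 5.31 to 9.39 in CUMS, 4.42 to 6.67 in OVX and 6.54 to 7.82 in OVX+CUMS mice. The CUMS mice were split by slide, with a mean of 8.82 on slide 1 and 5.81 on slide 2, and the value was -0.07 with slide as a block. The annotation of the array gives no genomic position for this probe. At chrX:20570399-20571162 (forward) the interaction was 2.66 ± 0.59, and -0.10 with the block. Below 0 were chr1:183832694-183834125 (reverse) at -1.50 ± 0.37 and chr19:23254618-23268776 (forward) at -1.42 ± 0.36.

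**Figure D5:**
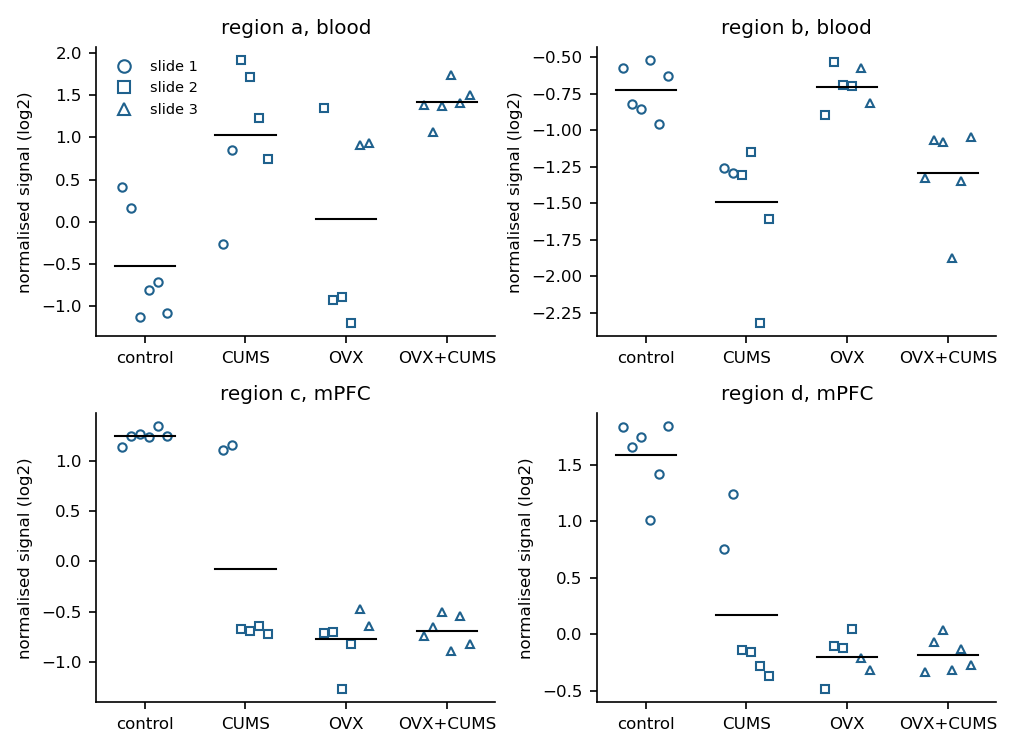
Log2 signal (vertical axis, relative to the 75th percentile of the array) of 4 regions on each array by group, 2 in blood and 2 in mPFC, with the marker shape giving the slide and a line at each group mean. In blood the region on chromosome 18 has all 12 stressed mice below the 12 unstressed ones, and in both mPFC panels the 2 CUMS mice on slide 1 lie near the control mice and the 4 on slide 2 near the OVX mice.

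In mPFC, OVX was called for 1188 of 2911 members, 899 lower and 289 higher, or 40.8%. Over all 28353 probes tested, 31% passed, 19.3% higher and 11.7% lower, against 9.93% and 30.9% of the regions. The median effect was -0.08 for the regions, 0.06 for gene-named probes and 0.05 for all probes. With the spike-in shift it was -0.21 for the regions and -0.09 for all. On that scale 678 of the 2911 regions were called, 666 lower and 12 higher, against 7.77% of all probes. When slide was a block, 0 regions and 0% of all probes passed (186 regions at an unadjusted p under 0.05; limma), and the median turned to 0.05. The median of the regions minus that of gene-named probes was -3.23 in control mice, -3.43 in CUMS, -3.50 in OVX and -3.46 in OVX+CUMS mice. The CUMS mean came from a split by slide. On slide 1 the means were -3.18 in CUMS and -3.23 in control mice, and on slide 2 -3.55 in CUMS and -3.51 in OVX mice. CUMS mice thus differed more between these slides than the groups differed within either slide. Control mice lay on slide 1 only and OVX mice on slides 2 and 3 only. The part of slide in the OVX calls was not tested beyond the block. The T cell marker level of mPFC, the log2 of the summed signals, differed between the groups too, but not apart from slide. It was 3.43 to 3.65 in control, 2.83 to 3.61 in CUMS, 2.79 to 2.97 in OVX and 2.84 to 3.04 in OVX+CUMS mice, and its part in the result was not tested.

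The most lowered regions of mPFC had this same split. At chr14:67587065-67588705 (forward) the control mice lay between 1.13 and 1.34, the OVX mice between -1.27 and -0.48 and the OVX+CUMS mice between -0.90 and -0.51. The CUMS mice ranged from -0.73 to 1.16, with a mean of 1.13 on slide 1 and -0.68 on slide 2. The fitted OVX effect was -1.32 ± 0.19 (adjusted p = 6.27e-05). At chr9:81537835-81583227 (reverse) the effect was -1.17 ± 0.18, with CUMS means of 3.64 on slide 1 and 1.98 on slide 2 beside 3.27 to 3.98 in control and 1.75 to 2.01 in OVX mice. At chr18:36470130-36489110 (reverse) the effect was -1.25 ± 0.18, with CUMS means of 1.57 and -0.14. In each, CUMS mice on slide 1 were close to control mice and those on slide 2 to OVX mice. Higher in OVX mice was chr15:5969454-5994540 (reverse), with -4.41 to -3.77 in control, -3.85 to -3.34 in CUMS, -3.51 to -2.77 in OVX and -3.45 to -2.56 in OVX+CUMS mice, and an effect of 0.75 ± 0.10. Effects at chr16:9249688-9275013 (forward) and chr4:59264275-59287850 (reverse) were 0.92 ± 0.16 and 0.88 ± 0.20.

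CUMS was called for 142 members in mPFC, 106 lower and 36 higher, or 4.88%, close to the 4.21% of all probes (2.33% higher, 1.88% lower). With slide as a block 0 regions passed (157 at an unadjusted p under 0.05), as did 0% of all probes, and within slide 2 0 regions and 0.0423% of all probes passed between CUMS and OVX mice (310 regions unadjusted; limma). The groups compared within slide 2 differ in surgery as well as stress, so that comparison is not one of CUMS alone. Without CUMS mouse 2 the count for CUMS over all slides was 466, and without CUMS mouse 6 it was 19. The most lowered region, chr19:9060613-9060851 (forward), had signals of 1.01 to 1.84 in control, -0.37 to 1.24 in CUMS, -0.49 to 0.04 in OVX and -0.33 to 0.03 in OVX+CUMS mice (effect -0.70 ± 0.15, adjusted p = 0.0221). Its CUMS means were 1.00 on slide 1 and -0.24 on slide 2. Effects of -0.55 ± 0.14 at chr7:114386535-114443910 (forward) and -0.53 ± 0.13 at chr14:28231577-28242027 (forward) followed. Among the regions past the threshold, the largest rise was 0.38 ± 0.08 at chr11:49932129-49938154 (reverse), and 0.37 ± 0.09 and 0.33 ± 0.08 were found at chr1:71730016-71740391 (forward) and chr19:12079745-12088620 (reverse).

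The interaction in mPFC was called for 371 regions, 352 above 0 and 19 below, or 12.7%, against 4.53% of all probes (3.42% above, 1.1% below). The median was 0.11 for the regions, -0.05 for gene-named probes and -0.04 for all probes, and turned to -0.10 for the regions with the spike-in shift. The count was 0 with slide as a block (limma, 91 at an unadjusted p under 0.05). With the spike-in shift it was 30 (21 above 0, 9 below), against 0.402% of all probes. It was 0 in 13 of the 24 fits that left out 1 mouse, that without CUMS mouse 3 among them, and 778 without CUMS mouse 2. At chr1:134867906-134885481 (forward) it was 2.18 ± 0.52 (adjusted p = 0.0333), with signals of -2.29 to -0.89 in control, -2.83 to -0.91 in CUMS, -2.77 to -0.70 in OVX and -0.98 to 0.24 in OVX+CUMS mice. The OVX+CUMS mice lay highest but overlapped the other groups. At chr1:138499609-138502045 (reverse) it was 1.95 ± 0.44. Below 0 were chr4:131737612-131738100 (reverse) at -1.45 ± 0.29 and chr16:59557120-59602070 (forward) at -1.33 ± 0.25.

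By a test of the difference in the fit of both tissues, the effects differed between tissues for smaller shares of the regions than of all probes. That fit had no slide term. With slide as a block in each tissue alone, 0 regions passed for OVX in blood or mPFC and 0 for CUMS in mPFC. The OVX effect in blood minus that in mPFC was called for 944 members (34.2%), 243 above 0 and 701 below, against 39.1% of all probes, 19.7% above and 19.4% below. Its median was -0.15 for the regions, 0.06 for gene-named probes and 0.03 for all, but with the spike-in shift 0.33 for the regions and 0.51 for all. On that scale 870 of the 2764 regions were called, 851 above 0 and 19 below, against 49% of all probes. The CUMS difference was called for 1330 members (48.1%), 1088 above 0 and 242 below, against 51.4% of all probes, 17.6% above and 33.8% below, with medians of 0.31, -0.16 and -0.10. With the spike-in shift none of the regions and 0% of all probes passed for CUMS (limma, 660 regions at an unadjusted p under 0.05), and the median was 0.25 for the regions.

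For OVX, chr13:28537223-28539860 (reverse) had the lowest difference, -1.63 ± 0.32 (adjusted p = 0.000167). Its blood signals were 3.14 to 3.69 in control, 2.12 to 4.33 in CUMS, 1.44 to 2.02 in OVX and 2.10 to 3.43 in OVX+CUMS mice, while those of mPFC were -1.86 to -1.04, -2.66 to -0.98, -2.16 to -0.11 and -2.16 to 0.08. The OVX mice lay below the control mice in blood and overlapped them in mPFC. At chr8:122712014-122732520 (reverse) the difference was -1.28 ± 0.18, with -0.20 to 0.50 in control and -1.56 to -0.55 in OVX mice in blood. Differences above 0 were 1.68 ± 0.35 at chr16:23992037-24001037 (forward) and 1.68 ± 0.46 at chr1:183951156-183986156 (forward).

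For CUMS, chr8:126278269-126291621 (forward) differed by 1.51 ± 0.29 (adjusted p = 0.000185), with blood signals of 1.27 to 1.82 in control, 1.70 to 3.83 in CUMS, 1.04 to 3.31 in OVX and 3.12 to 3.79 in OVX+CUMS mice. Its OVX mice were split by slide, with means of 1.68 on slide 2 and 3.00 on slide 3. The difference was 1.52 ± 0.31 at chr2:143992000-143992611 (forward). Below 0 were chr18:75518299-75524782 (reverse) at -0.73 ± 0.14 and chr8:119090566-119097735 (reverse) at -0.66 ± 0.12. The blood signals of the latter were -0.45 to 0.14 in control, -1.26 to -0.10 in CUMS, 0.01 to 0.29 in OVX and -0.81 to 0.04 in OVX+CUMS mice, so that the OVX+CUMS mice overlapped the control mice over most of their range, and its mPFC signals were 2.35 to 2.71, 2.65 to 2.97, 2.38 to 2.78 and 2.52 to 2.79.

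Each of the 45 named member probes was also compared between OVX+CUMS and control mice with an exact two-sided permutation test, in both tissues. After adjustment over the 90 tests, 26 of the 45 passed in blood and 29 in mPFC. The smallest p that all assignments of 6 and 6 mice allow is 0.00216, and 15 probes reached it in blood and 19 in mPFC, which means that the groups did not overlap there. The probes had been named for their effects on these arrays, so the tests are no independent evidence, and the groups shared no slide.

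Long noncoding RNAs with a gene name were taken as the other genes of this class, from a list of 56, of which 39 were on the array and 23 had a probe well above background on all 48 arrays (47 probes). In blood, 24 of these 47 probes (51.1%) were called for OVX, 21 of them higher, with a median of 0.24. For CUMS 24 (51.1%) were called, 17 of them lower, with a median of -0.25. These shares were close to the 55.1% and 48.5% of all probes. On the same scale, that of the 75th percentile, the medians of the regions had the opposite signs. Several genes had more than 1 probe, and most of the probes higher after OVX belonged to Neat1, Tug1 and Xist. The counts and medians of probes therefore rest largely on a few genes. With slide as a block, 0% of all probes passed for OVX in blood. In mPFC, 8 (17%) were called for OVX, against 31% of all probes, and 1 (2.13%) for CUMS, against 4.21%. There 0% of all probes passed for either effect with slide as a block. Between tissues 22 were higher in blood and 23 in mPFC, 95.7% in all against 96.5% of all probes, with a median of 0.03. Neat1, the scaffold of nuclear paraspeckles, was higher in blood on each of its 6 probes, by up to 4.87, while the 3 probes of Norad differed by -1.18, -1.95 and -4.24 and the probe of Peg13, an imprinted noncoding RNA of brain, by -2.65.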

How the data were processed

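RNA of blood and mPFC was measured on 48 one-colour arrays, and the groups came from the sample labels, which also state that the blood and mPFC arrays of a number come from 1 mouse. The authors' scanner files hold spot intensity in arbitrary units, from which Feature Extraction (version 10.7.3.1 in the headers) had removed background and spatial trends. Arrays were not scaled to each other in these files. The deposited log2 values, used as an alternative, are the same intensities on the log2 scale, shifted by the authors by each array's 75th percentile. All but 1 constant per array lay within 0.001 of the values computed here, for 100.0% of the 55249 probes with 1 spot.

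Here, spots marked as outliers were left out, log2 values were averaged over the spots of a probe and each array was brought to a common scale by subtracting its 75th percentile over the 55681 probes other than controls. A member is a probe that is not a control, whose name is a chromosome, start and end, and that is well above background on all 48 arrays. Tests were run on all probes detected in a tissue, which were positive and significant, well above background and without an outlier mark on its 24 arrays, with a signal over 50 on 2 or more arrays: 20747 probes in blood, 28353 in mPFC and 17528 in both. Of the 3010 members, 166 were not tested in blood and 99 in mPFC, nearly all because they exceeded 50 on fewer than 2 arrays. The number of arrays limits the precision. Between arrays of a group, the SD of the log2 difference over the members ranged from 0.257 to 0.834 for blood and from 0.215 to 0.523 for mPFC.

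Effects were fitted with limma 3.58.1 in R 4.3.3 and adjusted by Benjamini-Hochberg over all probes tested (threshold 0.05, two-sided). Surgery, stress and the interaction were fitted together, and an effect of surgery or stress was averaged over the levels of the other. The fit of both tissues took the mouse as a random block, with an estimated correlation of 0.0589. Single members were compared with exact permutation tests in scipy 1.17.1 (Python 3.11.15, pandas 2.3.3, figures with matplotlib 3.10.9). The models were tested on simulated data. The named regions are the 5 with the largest and the 5 with the smallest tissue difference, the 3 that rose and the 3 that fell most for each effect in each tissue, the 2 furthest above and below 0 for each interaction and each difference of effects, the 3 with the most member probes and the 3 on either side of the detection rule; effects were ranked among the members past the threshold only. Of these, chr18:36452279-36454825 (forward) is given here only, with a tissue difference of -4.13 ± 0.07. Genes were named from the array's annotation, updated by RefSeq accession for 21022 of 22489 accessions. Exons and introns of the regions were not analysed here, since no mm9 annotation was at hand.

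The results were recomputed with normexp background correction (offset 50), with quantile normalization, with the percentile taken over detected probes, from the deposited log2 values, with other detection filters, with the spread of each probe alone, with slide or replicate number as a block, within slides, without the mouse block, and with each mouse left out in turn. A shift by the E1A spike-in probes was chosen after seeing the data. The members, lists and tests were chosen with earlier results of these data known. Replicate numbers did not pair mice of different groups: deviations of same-numbered mice had a mean correlation of -0.04 in blood and 0.06 in mPFC.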

Additional observations from a re-analysis of the deposited data

Results flagged for a closer look

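Among 360 sets of 6 arrays (a named region in 1 group and tissue), 20 had an array far from the others by Dixon's criterion, or 5.56%, where chance gives about 1 in 20. In mPFC, OVX+CUMS mouse 3 was the array apart for 5 of them: 5.45 at chr8:40238025-40264250 (forward; nearest other mouse 5.71), 1.34 at chr1:183951156-183986156 (forward; -0.10), 0.24 at chr1:134867906-134885481 (forward; -0.56), -1.22 at chr3:113296823-113298691 (reverse; -2.15) and -1.38 at chr16:23992037-24001037 (forward; -2.30). That array had the lowest 75th percentile of the mPFC arrays (572). Also in mPFC, OVX+CUMS mouse 2 had -0.11 at chr1:71730016-71740391 (forward; -0.98), OVX+CUMS mouse 6 had -1.16 at chr19:23254618-23268776 (forward; -2.44), CUMS mouse 3 had 0.10 at chr18:75518299-75524782 (reverse; -0.44), CUMS mouse 6 had -3.53 at chr16:9249688-9275013 (forward; -3.90) and control mouse 5 had 3.27 at chr9:81537835-81583227 (reverse; 3.72).

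In blood, CUMS mouse 2 had 5.35 and OVX+CUMS mouse 6 had 4.57 at chr3:88009045-88036270 (reverse), where the nearest other mice of their groups had 3.57 and 3.05. Control mouse 2 had 1.95 at chr9:81537835-81583227 (reverse; 3.33) and 1.22 at chr18:36470130-36489110 (reverse; 0.70), and OVX mouse 1 had 0.79 at the latter (-0.66) and -0.35 at chr8:40100925-40196350 (forward; -0.89). OVX+CUMS mouse 4 had -1.88 at chr18:75518299-75524782 (reverse; -1.35), OVX+CUMS mouse 1 had -1.18 at chr19:12079745-12088620 (reverse; -2.06), OVX mouse 6 had 1.15 at chr14:28231577-28242027 (forward; 0.77) and CUMS mouse 5 had -2.30 at chr16:23992037-24001037 (forward; -1.41).

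The effect in blood differed from that in mPFC, by the test of the difference, which had no slide term, for the 8 regions named for it. For OVX the differences were 1.68 at chr16:23992037-24001037 (forward) and at chr1:183951156-183986156 (forward), -1.63 at chr13:28537223-28539860 (reverse) and -1.28 at chr8:122712014-122732520 (reverse). For CUMS they were 1.52 at chr2:143992000-143992611 (forward), 1.51 at chr8:126278269-126291621 (forward), -0.73 at chr18:75518299-75524782 (reverse) and -0.66 at chr8:119090566-119097735 (reverse).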

How the results depend on the processing

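With slide as a block, 0 regions passed for OVX and the interaction in blood and 0 for OVX, CUMS and the interaction in mPFC. For CUMS in blood 1352 passed, and 771 of these were among the 1188 called without the block. The medians turned to 0.045 for OVX and 0.0099 for CUMS in mPFC, and 4 named values turned: -0.41 at chr1:42689799-42749799 (forward) and -0.12 at chr7:80763588-80764230 (forward) for OVX in blood, and -0.068 at chr12:83271350-83357214 (forward) and -0.10 at chrX:20570399-20571162 (forward) for the interaction. Of the 32 named values fitted with this block, 3 kept their call and 25 lost it. The block was not run for the 18 named tissue differences and differences of effects. The cause was not tested.

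With the spike-in shift, chosen after seeing the data, the counts in blood were 1080 for OVX, 229 for CUMS and 120 for the interaction. Over all probes 54.3%, 16.4% and 1.75% passed there. In mPFC the counts were 678, 17 and 30, against 7.77%, 0.494% and 0.402% of all probes. For the CUMS difference between tissues the count was 0, against 0% of all probes. The medians turned to 0.064 for OVX in blood, -0.10 for the interaction in mPFC and 0.33 for the OVX difference. Without a detection filter, CUMS in blood gave 731, the interaction in blood 0, CUMS in mPFC 2 and the interaction in mPFC 0, with more probes to adjust over. The interaction in blood also gave 264 with normexp, 97 with quantile normalization and 2 with the spread of each probe alone, which gave 189 for that in mPFC. With replicate number as a block, the interaction counts were 0 in blood and 199 in mPFC, and no other count of regions moved by over 1.5 times. Same-numbered mice of different groups are not paired, and 7 of 24 arrays per tissue correlated best with their own number.

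Leaving out each mouse in turn gave 1584 to 1819 regions for OVX in blood, 958 to 1501 for CUMS in blood, 0 to 515 for the interaction in blood, 1098 to 1242 for OVX in mPFC, 19 to 466 for CUMS in mPFC, 0 to 778 for the interaction in mPFC, 2701 to 2710 for the tissue difference, 794 to 1063 for the OVX difference, 1098 to 1508 for the CUMS difference and 49 to 58 for the exact tests. The highest counts for the interactions and for CUMS in mPFC came without CUMS mouse 2. The interaction count was 0 in 19 of the 24 fits in blood and in 13 of 24 in mPFC, and that of CUMS in mPFC was lowest without CUMS mouse 6. Over these fits no named value turned, and 12 of the 50 lost their call at least once, all of them interactions or CUMS in mPFC. The number of members was 5468 by the positive and significant call, 4415 by the blood arrays alone, 4783 by the mPFC arrays alone and 3417 on at least 47 arrays. Normexp, quantile normalization and the deposited log2 values kept the direction and the call of all 50 named values.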
